A study of Mus musculus with 16 samples.

Results

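Stool bacteria of wild-type (WT) mice with colitis were set against those of healthy WT mice. The 8 WT libraries were chosen by their labels: 4 from WT mice labelled healthy at time point 0 and 4 from WT mice with colitis induced by dextran sodium sulfate (DSS) at time point 1. They belong to a series of 16 libraries, and the other 8 come from Msc knock-out (KO) mice sampled in the same 2 conditions. Every healthy library is from time point 0 and every DSS library from time point 1, so colitis and time cannot be told apart. The labels give no strain, age, sex, cage, or dose or duration of DSS, and the condition label of the DSS libraries is spelled DDS. Both WT groups carry replicate numbers 0 to 3, and libraries are named here by condition and number. The labels do not say whether libraries with the same number came from the same mouse, or that the libraries of a group came from different mice. The p-values measure the spread between libraries. That is the spread of the 8 WT libraries for phyla and diversity. For genera, families and ASVs it is the spread within groups over all 16 libraries, KO mice included.

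The libraries hold sequences of variable regions V3 and V4 of the bacterial 16S rRNA gene. Reads were given as counts per amplicon sequence variant (ASV), a distinct 16S sequence that can mark a strain, a species or 1 of several gene copies in a genome. DSS is a sulfated polysaccharide that damages the colonic epithelium when mice drink it, and the inflamed gut admits oxygen and nitrate to a lumen otherwise kept nearly anaerobic. Facultative anaerobes such as Enterobacteriaceae are known to grow under those conditions. Strict anaerobes of the class Clostridia, many of which ferment fibre to butyrate, are known as sensitive to them, and butyrate is a main fuel of colonic epithelial cells. All values below are shares of a library's reads. A lower share can mean fewer of those bacteria or more of others, and these data cannot tell the 2 apart.

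The 8 libraries held 49253 to 66477 reads, and 3 reads, the limit that a count of 0 allows, correspond to 0.00451% to 0.00609% of a library. These limits allow for counting error only, and the reads carry no molecular identifiers. Shares varied by more than that. Between 2 libraries of a WT group, chi-square per degree of freedom was 28.0 to 136, where counting error alone gives about 1. The healthy libraries held 207, 248, 264 and 280 ASVs. DSS 0, DSS 2 and DSS 3 held 191, 172 and 189. DSS 1 held 844, and 711 of them had no read in any of the other 15 libraries of the series. Those 711 ASVs held 17.1% of the reads of DSS 1, while each of the other 15 libraries had 7 to 17 ASVs found in no other library. Results that rest on DSS 1 are therefore given with and without these 711 ASVs.

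The ASVs of DSS 1 alone were many and rare, with a median of 10 reads and at most 222. They fell into 29 phyla, of which 23 had no read in the other 15 libraries, and into 248 genus labels, of which 242 had none there. Acidobacteriota held 119 of these ASVs and 3.80% of the library's reads. Proteobacteria held 98 ASVs and 2.55%, Verrucomicrobiota 73 and 2.21%, Chloroflexi 99 and 1.97%, and Planctomycetota 74 and 1.77%. The families with most of their reads were the WD2101 soil group (48 ASVs, 812 reads), Chthoniobacteraceae (21 ASVs, 779 reads), Pyrinomonadaceae (19 ASVs, 657 reads) and Anaerolineaceae (37 ASVs, 565 reads), groups described mainly from soil and sediment. None of these 4 families had a read in another library. Ammonia oxidisers (Nitrosomonadaceae, 12 ASVs) and nitrite oxidisers (Nitrospiraceae, 6 ASVs) were among the others, and 6 of the 711 ASVs were archaeal. Firmicutes, the phylum with the largest share in every healthy library, held 15 of the 711 ASVs and 0.225% of the library's reads. The deposited confidence of the taxonomic assignment had a median of 0.993 for these ASVs and 0.982 for all others. Where these reads came from was not tested.

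**Figure D1:**
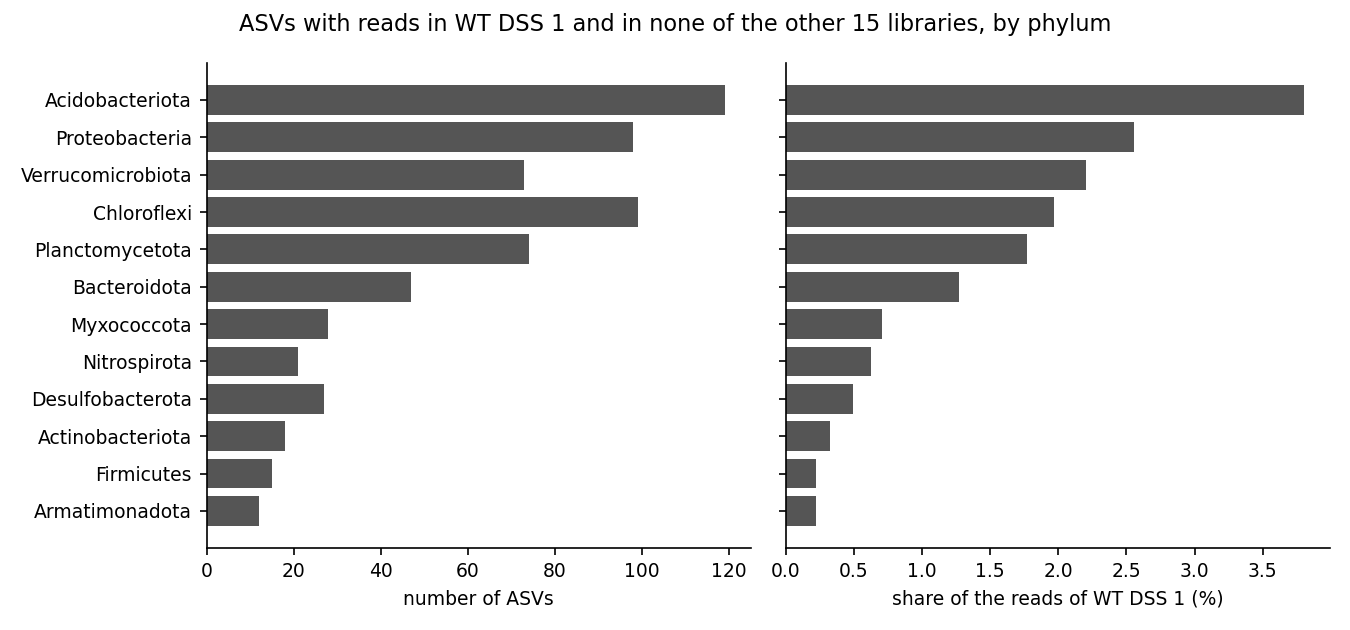
ASVs with reads in DSS 1 and in no other library, by phylum: their number (left) and their share of the library's reads in percent (right), for the 12 phyla with most reads. Acidobacteriota lead both panels, with 119 ASVs and 3.80% of the reads.

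Without those ASVs, DSS 1 held 133 ASVs and 48557 reads, and its families resembled those of DSS 2 and DSS 3. The Bray-Curtis distance runs from 0 for identical to 1 for disjoint libraries. Over ASV shares without these 711 ASVs, DSS 1, DSS 2 and DSS 3 lay on average 0.210, 0.220 and 0.220 from the other libraries of their group, and DSS 0 lay 0.339 from them. DSS 0 also held the highest Mucispirillum, Anaeroplasma and Eubacterium siraeum group shares of the group, given below. Between the groups, 16 pairs lay 0.385 to 0.538 apart with a mean of 0.454. The 6 pairs of healthy libraries lay 0.236 to 0.330 apart (mean 0.264) and the 6 pairs of DSS libraries 0.146 to 0.358 (mean 0.247). Every distance between a healthy and a DSS library was larger than every distance within a group. With all ASVs the between-group distances were 0.388 to 0.539 and the largest within-group distance was 0.366. At the genus rank without the 711 ASVs the ranges overlapped, with 0.250 to 0.438 between groups and up to 0.274 within DSS.

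**Figure D2:**
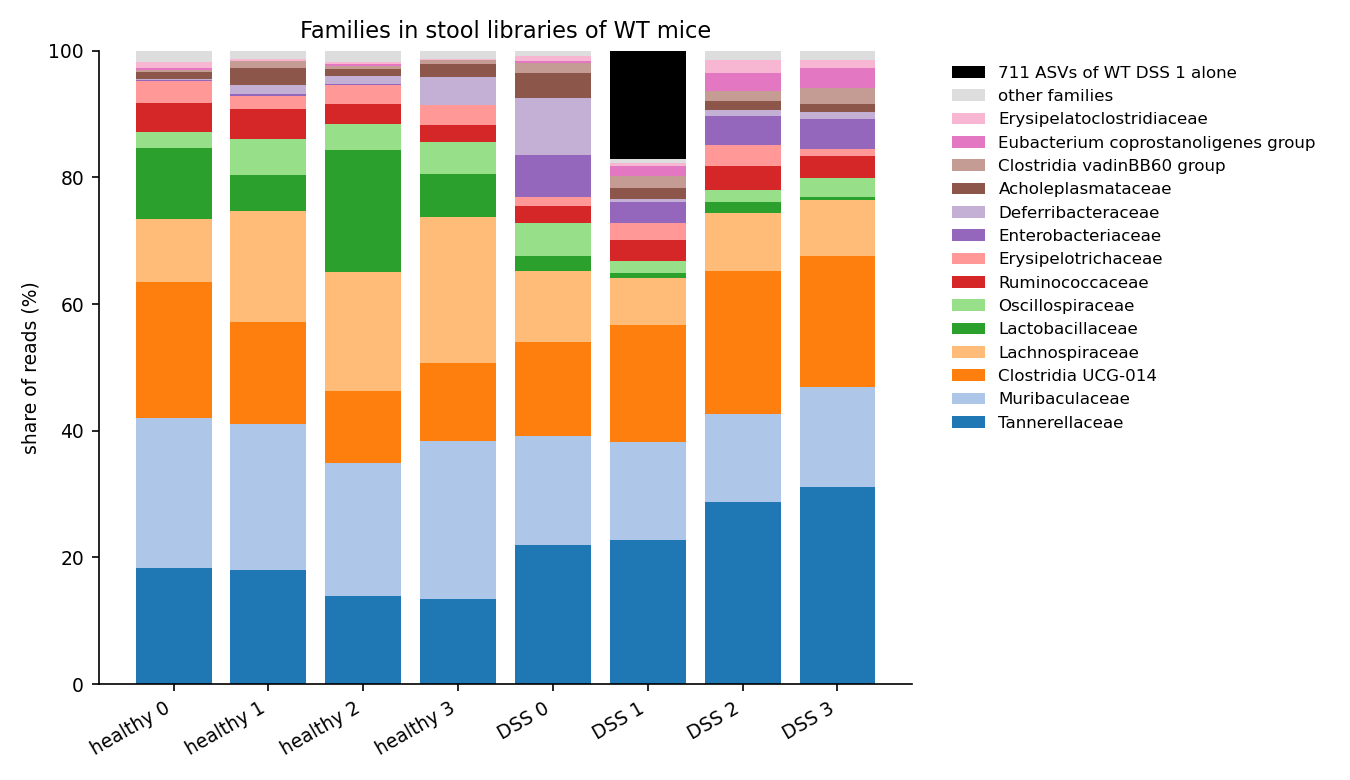
Stacked shares of reads (percent, vertical axis) of the most abundant families for the 4 healthy and 4 DSS libraries of WT mice, with the 711 ASVs found in DSS 1 alone drawn in black. Lactobacillaceae take less of every DSS library than of any healthy one, Tannerellaceae and Enterobacteriaceae more.

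Fewer kinds of bacteria were found under DSS once the ASVs of DSS 1 alone were left out. The number of ASVs expected at a common depth of 48557 reads was then 250 ± 31.3 (SD, n = 4) in healthy and 171 ± 26.8 (n = 4) in DSS libraries. Every DSS library (133 to 191 ASVs) lay below every healthy one (207 to 280), a difference of -78.4 ASVs (two-sided exact permutation test, p = 0.0286). That is the smallest p that 4 against 4 libraries can give. With all ASVs, at a depth of 49253 reads, the direction turned. The mean was 349 ± 329 under DSS, 98.9 above the healthy mean (exact permutation p = 1), because DSS 1 alone reached 842. Leaving DSS 1 out altogether gave a difference of -65.7, which did not pass (exact permutation p = 0.0571, 4 against 3 libraries).

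The Shannon index, which weighs the number of ASVs by how evenly reads are spread over them, was 3.24, 3.56, 3.57 and 3.64 in the healthy libraries. Under DSS it was 3.28, 3.91, 3.06 and 2.99, and the groups overlapped. The difference of -0.19 did not pass the test (exact permutation p = 0.457). Without the ASVs of DSS 1 alone, that library fell to 2.89 and the difference was -0.45 (exact permutation p = 0.0571), with DSS 0 (3.28) still above the lowest healthy library. Summed to genera the difference was 0.0475 with the opposite sign (exact permutation p = 0.971).

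**Figure D3:**
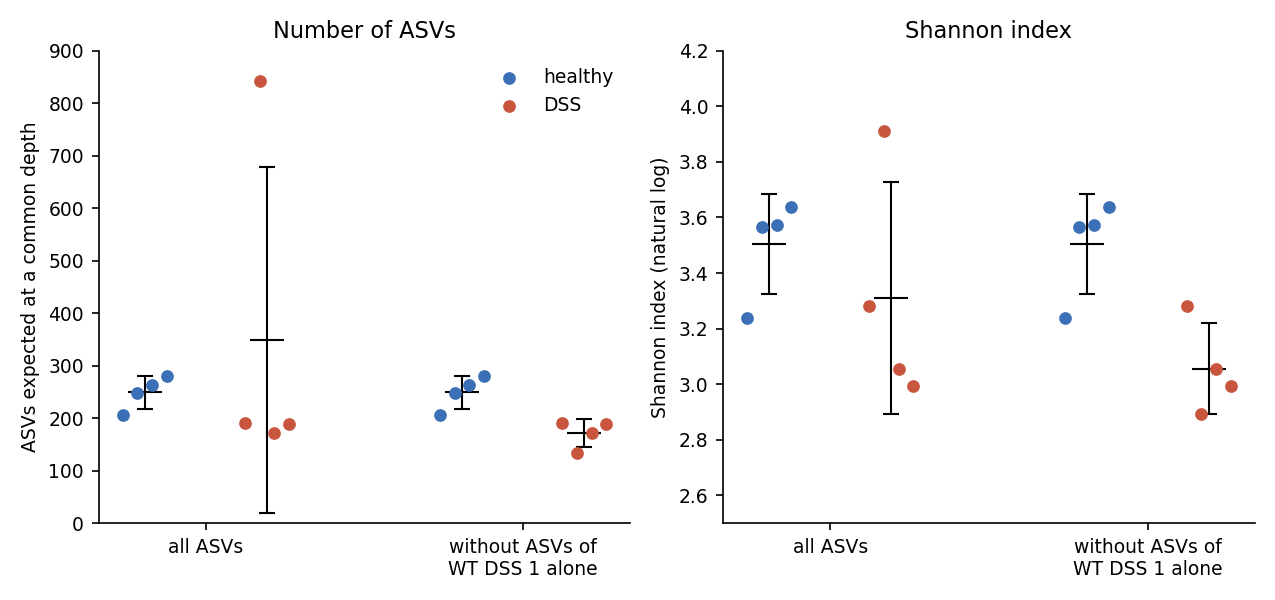
Number of ASVs expected at a common depth (left) and Shannon index (right, axis not from 0) in healthy (blue) and DSS (red) libraries, with all ASVs and without the 711 found in DSS 1 alone. Points are libraries, and bars give the mean ± SD (n = 4). The single point at 842 ASVs is DSS 1, which drops to 133 without those ASVs.

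At the phylum rank, Firmicutes, mostly Clostridia and lactobacilli here, held 57.1, 57.0, 63.3 and 56.9% of healthy reads and 45.2, 40.9, 51.7 and 47.2% under DSS. Proteobacteria, the phylum of Escherichia, held 0.104, 0.213, 0.187 and 0.0557% and then 6.57, 5.92, 4.65 and 4.88%. In both phyla the groups did not overlap, and each reached the smallest exact permutation p of 0.0286 (adjusted p = 0.0571 by exact permutation over the 4 phyla of at least 1%). So 0 of 4 phyla passed the adjusted threshold, and 2 had an unadjusted p under 0.05. With 2 of 4 phyla at the smallest p, the adjusted p could not fall below 0.0571, however large their change. The adjusted test therefore could not decide for these 2. Of the Proteobacteria in DSS 1, 2.55% of the library's reads were in the ASVs of that library alone, and its share without them was 4.06%. Bacteroidota went from 39.1 ± 3.15 to 42.1 ± 3.58% (SD, n = 4 each, exact permutation p = 0.314) and the groups overlapped. Without the 711 ASVs, Firmicutes held 49.1% of DSS 1 in place of 40.9%, and 48.3 ± 2.78% on average under DSS (SD, n = 4). Bacteroidota then held 46.2% of DSS 1 in place of 39.5%, and 43.7 ± 3.55% on average (SD, n = 4). The ratio of Firmicutes to Bacteroidota was 1.36, 1.39, 1.81 and 1.48 in healthy and 1.15, 1.04, 1.21 and 1.01 in DSS libraries, a log2 difference of -0.45 (exact permutation p = 0.0286). Deferribacterota, here Mucispirillum, a genus that lives in the mucus layer, held 0.197, 1.44, 1.28 and 4.39% and then 8.94, 0.50, 0.918 and 0.996%. Its mean was higher under DSS through DSS 0 alone, and without that library the log2 difference turned from 0.33 to -0.55. It also turned without healthy 0, the lowest healthy library, to -0.49.

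Reads were then summed to genera, and 66 genera with at least 5 reads in at least 4 of the 16 libraries were tested with edgeR. Of these, 15 passed a Benjamini-Hochberg adjusted p of 0.05, or 22.7%. Higher under DSS were 7 (10.6%) and lower were 8 (12.1%), and 22 (33.3%) had an unadjusted p under 0.05. The 4 healthy and 4 DSS libraries did not overlap in 21 genera (31.8%), of which 4 were higher (6.06%) and 17 lower (25.8%) under DSS. Of the 15, 12 did not overlap (18.2%) and 6 had no read in 1 of the groups (9.09%). The split depends on scaling. edgeR's TMM factors left the median genus at a log2 difference of 0.01. Scaling by total reads moved the median to -0.55, with 7 of 20 called genera higher. Log2 differences below are on the TMM scale and given with their standard error. None of the 15 calls changed when the 711 ASVs of DSS 1 were left out before summing, since these ASVs lie mostly in genera that did not enter the test.

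**Figure D4:**
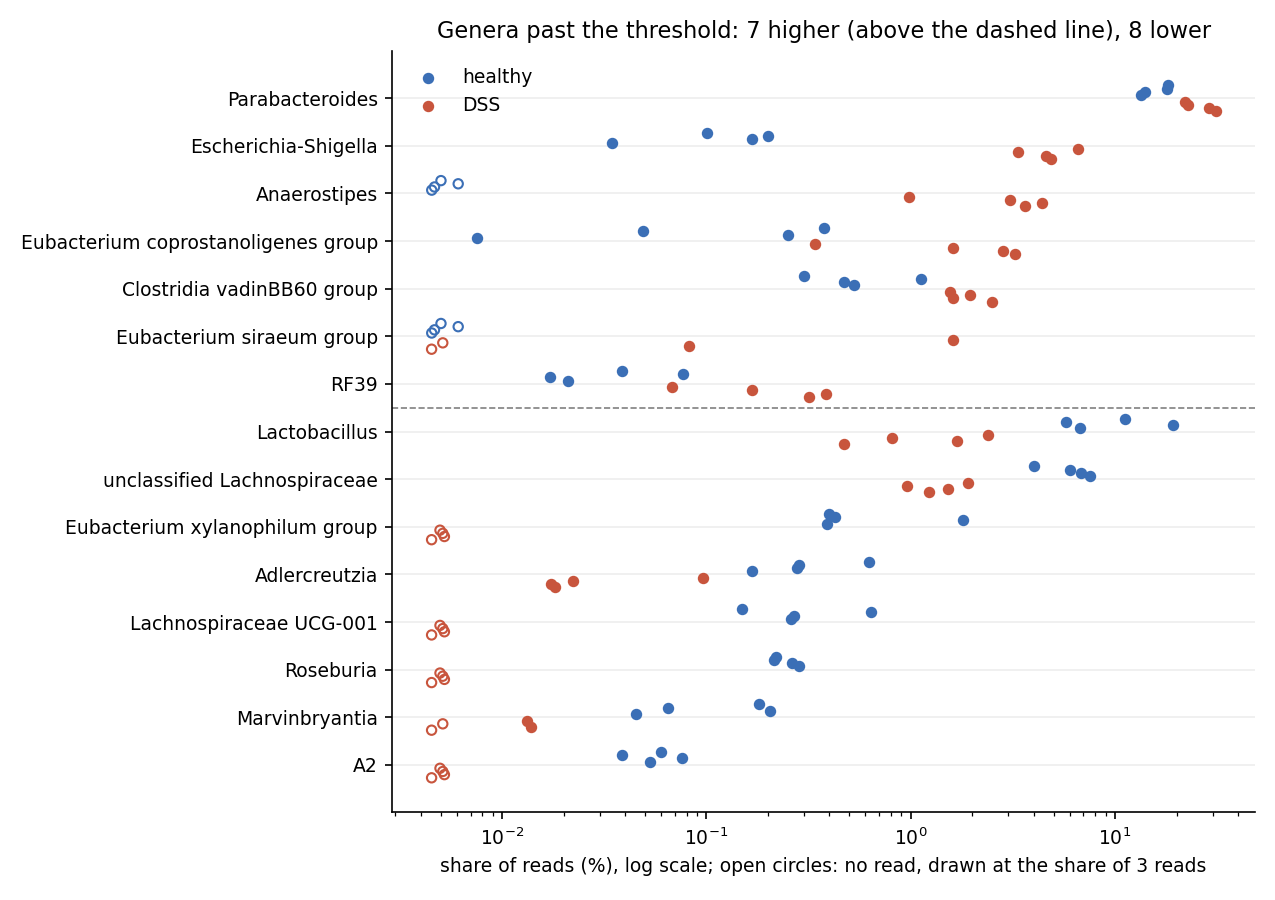
Shares of reads (percent, log axis) of the 15 genera past the threshold in healthy (blue) and DSS (red) libraries, 1 point per library. Open circles mark libraries with no read, drawn at the share of 3 reads. Anaerostipes and the Eubacterium siraeum group have no read in the healthy libraries. Lachnospiraceae UCG-001, Eubacterium xylanophilum group, Roseburia and A2 have none under DSS.

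Among the facultative anaerobes, Escherichia-Shigella rose in every DSS library. Its share was 0.10, 0.201, 0.168 and 0.0347% in healthy and 6.57, 3.35, 4.61 and 4.88% in DSS libraries. The lowest DSS library lay above the highest healthy one by an order of magnitude. The mean went up 38.5-fold (log2 difference 5.85 ± 0.81, edgeR adjusted p = 7.51e-05), and the family Enterobacteriaceae, to which it belongs, gave 5.40 ± 0.71 (edgeR adjusted p = 1.34e-05). In DSS 1 without its own ASVs the share was 4.05%. Enterococcus, the other facultative anaerobe of the list that had reads, held 0.0119 ± 0.00860% in healthy and 0.0372 ± 0.0264% in DSS libraries (SD, n = 4 each) and did not pass the test (edgeR adjusted p = 0.253). The other 4 families of that list, among them Streptococcaceae and Staphylococcaceae, had no read in the WT libraries. Over the whole list, 1 of 2 tested genera and 2 of 3 tested ASVs rose, and none fell, beside 10.6% of all genera and 4.55% of all ASVs called higher. Both ASVs were Escherichia-Shigella and kept a near constant ratio, given below, so they are not independent.

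Parabacteroides, a saccharolytic genus of Bacteroidota, had the highest share of any genus in each DSS library. It held 18.2, 18, 13.9 and 13.4% of healthy and 22.0, 22.8, 28.7 and 31.0% of DSS reads, and the groups did not overlap. The mean went up 1.64-fold (log2 difference 1.33 ± 0.34, edgeR adjusted p = 0.00888). The call was lost without healthy 1, healthy 2 or DSS 3 (edgeR adjusted p = 0.059 to 0.127). Nearly all of these reads were 1 ASV, asv2, labelled Parabacteroides goldsteinii (edgeR adjusted p = 0.0167, and 0.0829 without healthy 1). The calls of the genus and of asv2 were also lost with no read filter and with the replicate number as a block. That of asv2 was lost with total reads as the scale as well.

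Anaerostipes, a Lachnospiraceae genus that makes butyrate from lactate and acetate, had no read in the healthy libraries and held 0.979, 3.08, 4.38 and 3.64% under DSS. It was at least 595-fold higher, counting the healthy libraries at 3 reads each, and a single ASV, asv18, held all of its reads. Neither healthy nor DSS libraries of KO mice had a read of it, so it met the read filter only through the 4 libraries where it was high. It had to differ, and its place among the 15 calls is a description. The Eubacterium coprostanoligenes group, named for a species that reduces cholesterol to coprostanol, held 0.378, 0.0487, 0.252 and 0.00753% and then 0.341, 1.62, 2.83 and 3.23%. DSS 0 lay within the healthy range and the other 3 above it (log2 difference 4.19 ± 1.27, edgeR adjusted p = 0.0239). Its call was lost without healthy 1, healthy 2 or DSS 3 (adjusted p 0.0518 to 0.0904). Here too 1 ASV, asv28, had no read in healthy libraries and held 0.276, 1.61, 2.81 and 3.20% under DSS, at least 389-fold higher. It also met the read filter only through those 4 libraries, so no p is given. The rise of the group lay in asv28 alone, and its calls as a genus and as a family rest on those reads. The 2 ASVs of the group seen in both conditions held 0.0770% of healthy and 0.0310% of DSS reads on average. Another 1, with 0.0945% of healthy reads, had none under DSS.

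The Clostridia vadinBB60 group, known almost only from sequences, held 0.301, 1.12, 0.471 and 0.526% and then 1.56, 1.95, 1.61 and 2.5%, with no overlap (log2 difference 2.24 ± 0.58, edgeR adjusted p = 0.0104). RF39, a group of wall-less Bacilli with small genomes, went from 0.0385 ± 0.0274% to 0.235 ± 0.144% (SD, n = 4 each, log2 difference 3.20 ± 1.05, edgeR adjusted p = 0.0323). The RF39 call was lost when any of 6 libraries was left out, the exceptions being DSS 0 and DSS 1 (adjusted p 0.059 to 0.124). The Eubacterium siraeum group, Ruminococcaceae that degrade plant fibre, was seen in DSS 0 (1.60%) and DSS 2 (0.0817%) only. It passed the test (edgeR adjusted p = 0.0251) but not without DSS 0 or without any 1 of the 4 healthy libraries (adjusted p 0.0507 to 0.0798).

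Lactobacillus, lactic acid bacteria of the stomach and gut of mice, fell. It held 11.2, 5.75, 19.2 and 6.71% of healthy and 2.40, 0.811, 1.69 and 0.469% of DSS reads, a 7.99-fold lower mean with no overlap (log2 difference -2.34 ± 0.68, edgeR adjusted p = 0.0193). The genus call was lost without healthy 2 or DSS 1 (adjusted p 0.0523 and 0.0531). The family Lactobacillaceae, which holds the same reads, kept its call without any 1 of the 8 libraries (log2 difference -2.93 ± 0.64, edgeR adjusted p = 0.00323). Its species moved by different amounts. The ASV of L. johnsonii, asv8, went from 3.91, 3.30, 6.49 and 3.40% to 0.349, 0.0392, 0.0348 and 0.0361% (log2 difference -4.91 ± 1.01, edgeR adjusted p = 0.0031). L. intestinalis, asv99, held 0.172, 0.164, 0.608 and 0.237% and had no read under DSS, at least 59.6-fold lower (edgeR adjusted p = 0.000592). The main ASV of L. murinus, asv4, held 5.94, 1.86, 10.1 and 2.52% and then 1.65, 0.647, 1.36 and 0.373%, and did not pass (edgeR adjusted p = 0.213). Bifidobacterium, listed with the lactic acid bacteria, had no read in the WT libraries.

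Among Lachnospiraceae, butyrate producers and fibre fermenters of the order Lachnospirales, 20 genera were tested, with reads of no genus label counted as 1. Of these, 6 fell, 1 (Anaerostipes) was higher and 13 did not pass, beside 12.1% of all genera called lower and 10.6% higher. The 6 include 5 named genera with reads in every healthy library, of which 4 had no read under DSS. Roseburia, a flagellated butyrate producer, held 0.219, 0.215, 0.261 and 0.285% and was at least 49.5-fold lower (edgeR adjusted p = 0.00467). Lachnospiraceae UCG-001 held 0.149, 0.642, 0.269 and 0.261% and was at least 66.6-fold lower (edgeR adjusted p = 7.51e-05). The Eubacterium xylanophilum group, named for a xylan degrader, held 0.396, 0.424, 1.81 and 0.390% and was at least 152-fold lower (edgeR adjusted p = 0.00834). A2 held 0.0569 ± 0.0157% (SD, n = 4) and was at least 11.5-fold lower (edgeR adjusted p = 0.000245). All 4 had no read in any DSS library. Marvinbryantia, the fifth of them, went from 0.181, 0.0650, 0.204 and 0.0452% to 0.0132, 0, 0.0139 and 0% (log2 difference -3.51 ± 1.10, edgeR adjusted p = 0.0323), and its call was lost without any 1 of 5 libraries (adjusted p 0.0502 to 0.0752), healthy 0, healthy 2, DSS 0, DSS 1 and DSS 3. Lachnospiraceae reads with no genus label held 4.03, 5.99, 6.84 and 7.54% and then 1.91, 0.956, 1.52 and 1.23% (log2 difference -1.45 ± 0.36, edgeR adjusted p = 0.00842). Calls for Roseburia, UCG-001, the xylanophilum group, A2 and the reads with no genus label held without any 1 of the 8 libraries. The A2 call was lost with no read filter and with the replicate number as a block.

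Outside Lachnospiraceae, Adlercreutzia also fell. It is an Eggerthellaceae genus known for converting soy isoflavones to equol. It held 0.627, 0.282, 0.278 and 0.167% and then 0.0959, 0.0222, 0.0174 and 0.0181%, with no overlap (log2 difference -2.65 ± 0.75, edgeR adjusted p = 0.0172). The genus call was lost without healthy 0 (adjusted p = 0.0581), and the call of the family Eggerthellaceae, which holds the same reads, was not (log2 difference -3.02 ± 0.76, edgeR adjusted p = 0.00775).

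The list of butyrate producers held 8 genera with reads in the WT libraries. Of the 7 tested, Roseburia and the xylanophilum group fell, Anaerostipes, which entered only through the DSS libraries, was higher, and 4 did not pass the test: Butyricicoccus, Coprococcus, Intestinimonas and the Lachnospiraceae NK4A136 group. The eighth, the Eubacterium ventriosum group, was not tested, since it had reads in only 3 libraries of the series. It held 1.76, 2.19 and 1.76% of healthy 0, healthy 1 and healthy 2 and had no read in healthy 3, in any DSS library or in any library of KO mice. The list's summed share was 4.21, 8.12, 8.38 and 10.2% in healthy and 6.98, 5.49, 7.10 and 7.01% in DSS libraries, and the groups overlapped. Among 27 tested ASVs of the list with reads in WT mice, 3 were called higher and 7 lower, with a median log2 difference of -1.13. Of the 3, asv18 and asv46 met the read filter only through the DSS libraries of WT mice, so their calls are a description. None of the 7 met it in this way. Over all 283 tested ASVs with such reads, 14 were called higher and 39 lower, with a median of -0.78. Of the DSS sum, Anaerostipes and the NK4A136 group held 3.02 and 3.44%.

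Among the listed fibre degraders, Ruminococcus held 2.78, 2.08, 0.923 and 0.646% and then 0.0182, 0.186, 0.330 and 0.390%. The groups did not overlap, but it did not pass the adjusted test (unadjusted p = 0.0218, edgeR adjusted p = 0.0845). Monoglobus, a pectin degrader, held 0.268 ± 0.122% and 0.272 ± 0.230% (SD, n = 4 each, edgeR adjusted p = 0.548). None of the 3 listed genera with reads passed. Of the mucin users only Mucispirillum had reads, with the shares of its phylum above (edgeR adjusted p = 0.253), while Akkermansia and Bacteroides had none. Of the wall-less bacteria, RF39 rose and Anaeroplasma did not pass (1.05, 2.71, 1.17 and 2.18% and then 3.99, 1.62, 1.41 and 1.33%, edgeR adjusted p = 0.383). None of the 4 tested genera of Erysipelotrichales passed, and their summed share was 3.33 ± 0.885% and 3.24 ± 1.43% (SD, n = 4 each). Sulfate-reducing Desulfovibrionaceae and Candidatus Arthromitus, the segmented filamentous bacteria, had no read in any of the 8 WT libraries. Chloroplast, mitochondrial and phylum-less sequences held at most 0.126%, in DSS 1.

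The other genera of highest share did not pass the test. Muribaculaceae, polysaccharide degraders that dominate the Bacteroidota of mice and carry their family's name as a genus label, held 23.7, 23.1, 21.0 and 25.1% of healthy and 17.2, 15.5, 13.9 and 15.8% of DSS reads. Every DSS share was below every healthy one, yet on the TMM scale the log2 difference was 0.03 ± 0.19 (edgeR adjusted p = 0.937). With total reads as the scale it was -0.52 (edgeR adjusted p = 0.00733). Clostridia UCG-014, a group without cultured members here, held 21.5, 16.1, 11.2 and 12.2% and then 14.7, 18.5, 22.6 and 20.7%, and did not pass (log2 difference 0.91 ± 0.33, edgeR adjusted p = 0.0564). It passed with TMMwsp factors (adjusted p = 0.00545), with limma (0.0423), without healthy 0 (0.0156) and without DSS 1 (0.0494), and its adjusted p ranged up to 0.356 over all alternatives. The family of the same name, which holds the same reads, gave 0.50 ± 0.30 (edgeR adjusted p = 0.219). It passed with none of the alternatives (adjusted p 0.0578 to 0.611). Turicibacter went from 2.78 ± 0.672% to 2.04 ± 1.02% (SD, n = 4 each, edgeR adjusted p = 0.925). The Lachnospiraceae NK4A136 group held 1.75, 5.22, 4.44 and 9.42% and then 5.95, 2.28, 2.63 and 2.89%, and the groups overlapped (edgeR adjusted p = 0.937).

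Of 26 families tested, 7 passed (26.9%), 5 higher (19.2%) and 2 lower (7.69%), and 10 (38.5%) had an unadjusted p under 0.05. The groups did not overlap in 8 families (30.8%), with or without the 711 ASVs of DSS 1. With total reads as the scale, 10 passed, 5 in each direction. Besides those named above, Tannerellaceae, the family of Parabacteroides, rose (log2 difference 0.89 ± 0.27, edgeR adjusted p = 0.0236), a call lost without DSS 2 or DSS 3 (adjusted p 0.0694 and 0.056). The calls of the coprostanoligenes group and of RF39 as families were lost without 3 and 4 of the 8 libraries (adjusted p 0.056 to 0.0716 and 0.056 to 0.0956). These were healthy 1, DSS 2 and DSS 3 for the former, and healthy 2, healthy 3, DSS 2 and DSS 3 for the latter. Lachnospiraceae as a whole held 9.91, 17.4, 18.9 and 23.1% and then 11.3, 7.42, 9.21 and 8.81%. It did not pass (log2 difference -0.73 ± 0.28, edgeR adjusted p = 0.0583), though it did without healthy 0, the healthy library that overlaps the DSS group (-0.90, adjusted p = 0.0263). It also passed with poscounts factors (adjusted p = 0.0404), with total reads (0.0346), with DESeq2 (0.0332) and with the WT libraries alone (0.0195). Muribaculaceae did not pass as a family (edgeR adjusted p = 0.142), but did without DSS 1 (-0.50, adjusted p = 0.0413), with total reads (0.0219), with DESeq2 (0.0497) and with the WT libraries alone (0.0191). Erysipelatoclostridiaceae held 0.896, 0.246, 0.281 and 0.152% and then 0.757, 0.389, 2.02 and 1.25% and did not pass (edgeR adjusted p = 0.135). Ruminococcaceae held 3.81 ± 1.02% and 3.29 ± 0.436%, and Oscillospiraceae 4.31 ± 1.36% and 3.01 ± 1.54% (SD, n = 4 each, edgeR adjusted p = 0.937 and 0.533).

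Changes were also counted for single ASVs. Of 308 ASVs tested, 53 passed (17.2%), 14 higher (4.55%) and 39 lower (12.7%), and 109 (35.4%) had an unadjusted p under 0.05. Of the 53, 6 of those higher and 8 of those lower met the read filter only with the libraries of the WT group where they were high, and their calls are a description. In 44 of the 53 (14.3% of those tested) one group had no read at all. The groups did not overlap in 75 ASVs (24.4%), 17 higher (5.52%) and 58 lower (18.8%), and 41 of these also passed the test (13.3%). The 39 ASVs that fell included 14 of 59 tested in Lachnospiraceae with no genus label, 4 of 17 in the NK4A136 group, 4 of 30 in Clostridia UCG-014, 3 of 24 in Oscillospiraceae with no genus label, and 2 each in Lachnospiraceae UCG-001, Roseburia and Lactobacillus. Over the 113 tested Lachnospiraceae ASVs with reads in WT mice, 25 fell and 4 rose, with a median log2 difference of -2.19. For Oscillospiraceae the counts were 4 and 1 of 49 (median -0.41) and for Ruminococcaceae 3 and 0 of 24 (median -1.31). In the vadinBB60 group 2 of 22 rose and none fell (median 0.91). These counts include ASVs that met the read filter only with the WT group where they were high. Among those that rose they were asv18 and asv46 (Lachnospiraceae) and asv155 (vadinBB60 group). Among those that fell they were asv240, asv263 and asv317 (Lachnospiraceae), asv233 and asv340 (Oscillospiraceae), asv383 and asv397 (Ruminococcaceae) and asv229 (Clostridia UCG-014).

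The NK4A136 group shows ASVs of 1 genus label going both ways. Its asv56 held 0.150, 0.603, 0.255 and 1.16% of healthy reads and had none under DSS, at least 110-fold lower (edgeR adjusted p = 0.000592), and asv59 was at least 97.2-fold lower (edgeR adjusted p = 0.000694). Its asv46 had no healthy read and held 0.245, 1.15, 1.51 and 0.466% under DSS, at least 166-fold higher. In all, 5 of its ASVs had reads only in healthy WT libraries (1.70% of healthy reads on average), 11 only under DSS (1.65% of DSS reads), and 9 in both (3.51% and 1.91%), with the 711 ASVs of DSS 1 left out. Clostridia UCG-014 did likewise. Its asv33 held 2.26, 1.57, 1.48 and 0.0814% and had no read under DSS, at least 272-fold lower (edgeR adjusted p = 0.00788). Its asv41 had no healthy read and held 1.63, 1.41, 0.893 and 0.281%, at least 208-fold higher. Both asv46 and asv41 met the read filter only with the 4 DSS libraries of WT mice counted, so no p is given for them. The abundant ASVs of that group were in both conditions: asv6 held 4.14% and 6.71% on average and did not pass (edgeR adjusted p = 0.125), and asv5 held 4.19% and 5.70% (adjusted p = 0.487).

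Other ASVs that fell included asv61 of Ruminococcaceae (0.288, 0.426, 0.280 and 0.416% to 0.0347, 0.0205, 0.0261 and 0.0933%, edgeR adjusted p = 0.0161) and asv69 of Oscillospiraceae (0.353, 0.181, 0.219 and 0.333% to no read, adjusted p = 0.00186). In the Eubacterium xylanophilum group, asv67 held 0.288, 0.258, 0.322 and 0.351% and had no read under DSS (at least 61.5-fold lower, edgeR adjusted p = 0.000334). Those that rose included asv49 of the vadinBB60 group (0.0184, 0.140, 0.0793 and 0.0136% to 0.382, 0.875, 0.796 and 1.14%, adjusted p = 0.0214), a call lost without healthy 0 or healthy 2 (adjusted p 0.0553 and 0.0539). A Colidextribacter ASV, asv70, rose from 0.0385, 0.0650, 0.0404 and 0.0573% to 0.552, 0.174, 0.153 and 0.125% (adjusted p = 0.0123). Most of these ASVs carry no species name.

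Taken over all ASVs and leaving out the 711 of DSS 1 alone, 210 ASVs had reads in both WT groups and held 89.7% of healthy and 89.6% of the remaining DSS reads on average. There were 167 ASVs in healthy libraries only, with 10.3% of healthy reads, and 72 in DSS libraries only, with 10.4% of DSS reads. In each single library, ASVs unseen in the other group numbered 64 to 105 in healthy and 17 to 38 in DSS libraries. Of the 167, 90 also had reads in healthy KO mice, and of the 72, 12 did. A stricter cut gave 26 ASVs with reads in all 4 healthy and no DSS library, holding 4.79 ± 0.179% of healthy reads (SD, n = 4), and 15 of them were Lachnospiraceae. In the other direction, 7 ASVs had reads in all 4 DSS and no healthy library and held 8.32 ± 2.83% of DSS reads (SD, n = 4). They were 2 Lachnospiraceae, 2 Clostridia UCG-014 and 1 each of the coprostanoligenes group, Enterobacteriaceae and RF39. The 62 ASVs found in all 8 libraries held 80.7 ± 2.69% of healthy and 83.3 ± 1.32% of DSS reads (SD, n = 4 each), or 79.6 ± 6.36% of DSS reads with the 711 ASVs counted in. Lachnospiraceae, the family with most ASVs, had 85 in healthy only (6.34% of healthy reads), 65 in both (11% and 4.52%) and 24 in DSS only (5.04% of DSS reads). Muribaculaceae and Lactobacillaceae reads lay almost wholly in ASVs found in both groups, 2 ASVs with 23.2% and 16.4% of reads and 3 with 10.4% and 1.38%.

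**Figure D5:**
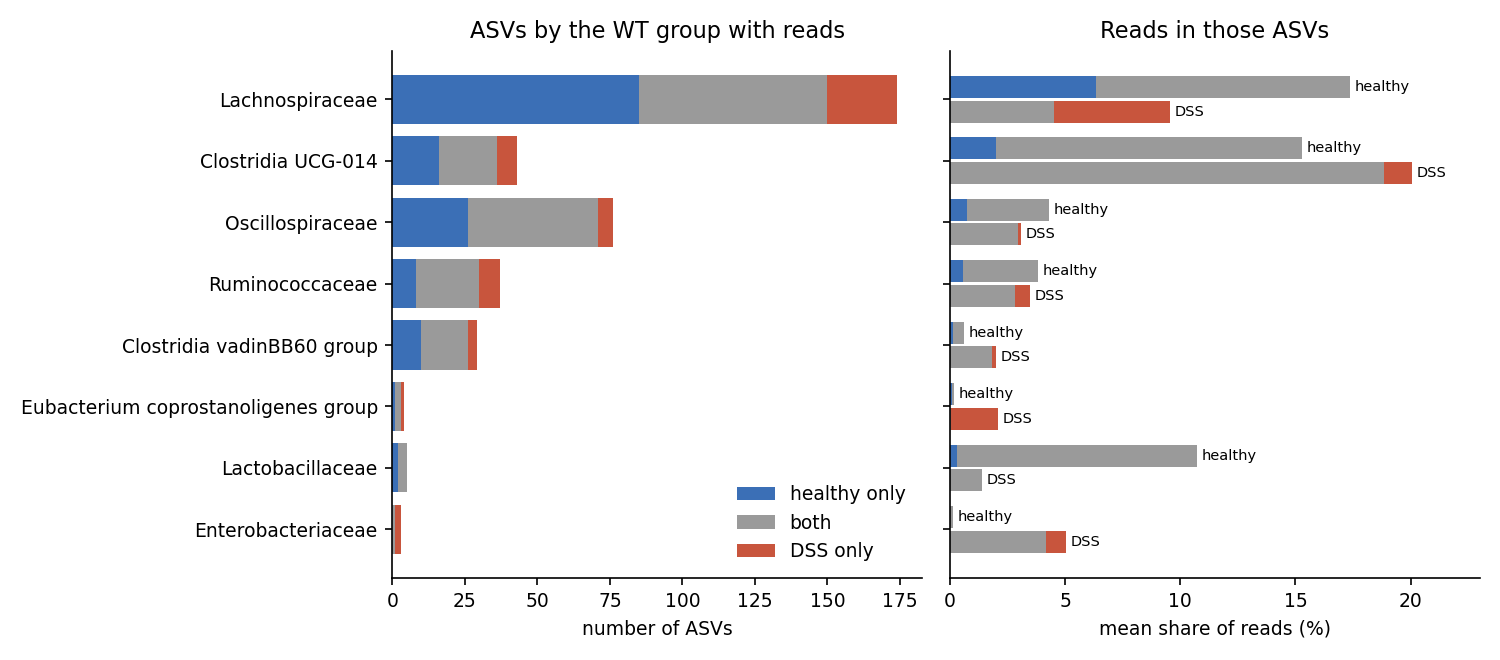
Number of ASVs with reads in healthy libraries only (blue), in both groups (grey) or in DSS libraries only (red) for 8 families (left), and the mean share of reads in percent that these ASVs held in healthy and in DSS libraries (right). The 711 ASVs of DSS 1 alone are left out. Lachnospiraceae have 85 ASVs in healthy libraries only and 24 in DSS libraries only.

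Some ASVs of 1 genus label kept a constant ratio of reads, in pairs picked out after their values were seen. The 2 main Muribaculaceae ASVs, asv1 and asv3, stood at 3.07 to 3.32 in all 8 libraries, healthy and DSS. A bacterial genome often carries several 16S gene copies that differ in sequence, and whether these pairs are copies of 1 genome was not tested. The L. murinus pair asv4 and asv14 stood at 4.14 to 6.20. The Escherichia-Shigella pair asv9 and asv29 stood at 4.99, 4.80, 4.75 and 4.92 in the DSS libraries. At the pooled DSS ratio of 4.88, the healthy libraries would hold 4.71 to 22.1 reads of asv29 for their reads of asv9, and all 4 held 0. ASVs joined in this way are not independent, and the counts of ASVs above include such pairs.

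The change under DSS was compared with that in KO mice through the interaction term of the same edgeR fits. Among the genera and families named by being called or abundant (35 entries), 3 families differed. Over all taxa tested the term passed for 3 of 66 genera (4.55%), 4 of 26 families (15.4%) and 17 of 308 ASVs (5.52%). The vadinBB60 group rose in WT mice and stood at 1.05 ± 0.625% and 0.989 ± 0.222% in healthy and DSS libraries of KO mice (SD, n = 4 each), a log2 difference between the 2 changes of 2.41 ± 0.72 (edgeR adjusted p = 0.0329). Ruminococcaceae went from 1.02 ± 0.429% to 6.34 ± 2.03% in KO mice and from 3.81 to 3.29% in WT mice (-2.28 ± 0.54, edgeR adjusted p = 0.00778). Muribaculaceae went from 36.3 ± 4.19% to 21.4 ± 2.16% in KO mice. In WT mice its share went from 23.2 ± 1.68% to 15.6 ± 1.32% (SD, n = 4 each). On the TMM scale the drop was larger in KO mice (0.84 ± 0.28, edgeR adjusted p = 0.0474). The size of that value rests partly on the family TMM factors, 0.655 to 0.798 in healthy KO libraries and 0.851 to 1.38 in the others. This interaction is not given here with total reads as the scale. Of the 3 families, Ruminococcaceae differed whichever of the 8 libraries was left out. The vadinBB60 family was lost without healthy 0, healthy 3, DSS 0, DSS 1 or DSS 3, and the family Muribaculaceae without healthy 0, healthy 1, healthy 3, DSS 0 or DSS 3. Both were lost with TMMwsp factors, where the genus labels of the same names passed, and with the replicate number as a block. Among listed genera, Ruminococcus had no read in healthy KO libraries and held 2.32 ± 0.794% under DSS there, against the lower DSS shares in WT mice given above (interaction, edgeR adjusted p = 3.19e-05). Escherichia-Shigella reached 6.27 ± 4.53% in KO mice under DSS (SD, n = 4), and its interaction did not pass (0.70 ± 0.93, edgeR adjusted p = 0.705). Nor did that of Parabacteroides (-0.03 ± 0.47, adjusted p = 1) or Lactobacillus (1.90 ± 0.92, adjusted p = 0.242) as a genus. Within it the L. murinus ASVs did differ: asv4 went from 12.8 ± 6.10% to 0.00354 ± 0.00708% in KO mice (SD, n = 4 each, interaction, edgeR adjusted p = 0.00232), while all 4 DSS libraries of WT mice kept at least 0.373%.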

How the data were processed

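The 16S V3-V4 amplicons were sequenced in paired reads per the labels, and cutadapt is named in the submitters' processing notes. For the denoiser, the classifier and the taxonomy database, names are not given in the sources used here. Values were deposited as whole read counts of 1330 ASVs in 16 libraries, not brought to a common depth. The deposited taxonomy table gives the confidence of each label as a fraction, 0.70 to 1. ASVs were numbered by total reads, and reads were summed by the Genus, Family and Phylum labels. ASVs with no label at a rank went under the last named one.

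Taxa with at least 5 reads in at least 4 of 16 libraries were tested with edgeR 4.0.16 (quasi-likelihood, TMM) in 1 fit of all 16 libraries in 4 groups, Benjamini-Hochberg adjusted over all taxa tested. Phyla (log2 of percent + 0.01) and diversity were tested by two-sided exact permutation (70 relabellings, smallest p 0.0286), with exact expectations at a common depth. Together, ASVs that entered the test made up 82.3% of DSS 1 and 95.0% to 99.2% of the other WT libraries. A fold bound is the mean share over the share of 3 reads per library of the other group. Genera, families and phyla are named if called, among the 8 most abundant genera, at least 1% in either group (phyla, families), or on a list and at least 0.1%. For called ASVs, up to 10 per direction with reads in all 4 libraries of the higher group are named, and asv40 and asv15 are counted only. The comparison and lists were chosen with earlier results of these data known. The labels do not say that same-numbered libraries are paired, and no block was used in the main fits. Deviations of same-numbered libraries from their group means had correlations of -0.10, -0.09, 0.08 and -0.04. These 4 values are too few to exclude pairing. Alternatives were other scalings, DESeq2 1.42.0, limma 3.58.1 on centred log-ratios, no filter, WT libraries alone, the replicate number as a block, and leaving out libraries in turn.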

Additional observations from a re-analysis of the deposited data

Results flagged for a closer look

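In groups of 4 libraries, 1 library stood apart from the other 3 by Dixon's criterion in 12 of 86 checks. In DSS 1 these were the ASVs in no other library (711, and a median of 12 in the other 3), their share of reads (17.1%) and the number of ASVs (842). In DSS 0 they were Deferribacterota and its family Deferribacteraceae (8.94% each), Acholeplasmataceae (3.99%), the Lachnospiraceae NK4A136 group (5.95%), the Eubacterium siraeum group (1.60%), and Adlercreutzia and its family Eggerthellaceae (0.0959% each). In healthy 2 they were the Eubacterium xylanophilum group (1.81%, other 3 at a median of 0.396%) and Firmicutes (63.3%). So 7 of the 12 were in DSS 0, where 2 pairs count the same reads at different ranks.

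The change under DSS differed between WT and KO mice by the edgeR interaction for the families Clostridia vadinBB60 group (2.41), Muribaculaceae (0.84) and Ruminococcaceae (-2.28), and for the listed genera Monoglobus (-6.17, adjusted p = 0.042) and Ruminococcus (-15.69). Both listed genera were at or near 0 in healthy KO libraries, so the size of these 2 log2 values depends on how a count of 0 is treated.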

How the results depend on the processing

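Leaving out the 711 ASVs of DSS 1 changed no count of called genera, families or ASVs. Leaving out each of the 8 WT libraries in turn gave 9 to 15 genera (9 without healthy 2, all among the 15), 4 to 9 families (4 without DSS 2 or DSS 3), 39 to 52 ASVs and 1 to 4 interactions, and 8 of 15 genera and 4 of 7 families kept their call in all 8. For the number of ASVs the range was -65.7 to 158, negative without DSS 1. That difference also turned to -78.4 without the ASVs of DSS 1 alone and to -77.2 without all ASVs of 1 library only, and the Shannon difference turned to 0.0475 over genera. Families numbered 11 with DESeq2 and 11 with the WT libraries alone, and ASVs 85 with limma. With the replicate block, 11 genera, 4 families and 27 ASVs passed, but the shared numbers are not known to pair the libraries. Without the filter 21 genera passed, 9 of them among the 15. The calls lost there were A2, Adlercreutzia, the vadinBB60 group, Marvinbryantia, Parabacteroides and RF39. Of the 7 called families 3 kept their call without the filter, and of the 53 called ASVs 33 did. The families lost were the vadinBB60 group, Eggerthellaceae, RF39 and Tannerellaceae. Taxa that did not pass changed sign around 0. NK4A136 group: -0.57 with total counts, -0.24 with no filter, -0.15 with WT libraries alone and -0.22 to 0.41 with a library left out. Genus Muribaculaceae, in the same order: -0.52, -0.22, -0.060 and -0.20 to 0.13. Turicibacter: -0.37 with total counts and -0.23 to 0.53 with a library left out. With the block, Deferribacteraceae gave -0.15 and Ruminococcaceae 0.0073. With a library left out, Ruminococcaceae gave -0.13 to 0.26, Deferribacteraceae -0.97 to 1.55, Acholeplasmataceae -0.0041 to 0.75, Erysipelotrichaceae -0.55 to 0.0089 and Deferribacterota -0.55 to 0.98. The cause of these reversals was not tested. At this depth, a taxon under 0.00451% to 0.00609% of reads could not be told from absent.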
